A study of Mus musculus with 6 samples.

Results

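The 7 genes described here encode proteins of the RAS, RAF, MEK and ERK tiers of the mitogen-activated protein kinase cascade, namely *Hras*, *Nras*, *Araf*, *Braf*, *Map2k1*, *Map2k2* and *Mapk3*. They were chosen by gene symbol, and their 7 rows were taken out of a table of 55357 mouse genes. RNA-seq was performed on primary cortical astrocytes cultured from late-gestation C57BL/6 mouse embryos. In the KE group, 3 samples received a plasmid in which the CMV promoter, which is not restricted to astrocytes, drives FLAG-tagged BRAF carrying the lysine-to-glutamate change K499E. In the NT group, 3 samples with a naive genotype were labelled as nontransfected. RNA was taken 48 hours after transfection, and libraries were made from mRNA with a stranded kit. The astrocyte medium given in the methods, for cells on coverslips, held HB-EGF, a ligand of the EGF receptor. Cells with an empty plasmid or with unmutated BRAF on a plasmid were not analysed here, so the act of transfection and the BRAF KE protein cannot be told apart in any comparison that follows. The protocol text of the NT samples repeats that of the KE samples, whereas their titles and treatment entries call them nontransfected, and the grouping follows the latter.

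In this cascade, receptors at the cell surface recruit exchange factors that load the small GTPases of the RAS family with GTP. GTP-bound RAS brings RAF kinases to the membrane, RAF phosphorylates the MEK kinases, and MEK phosphorylates ERK on a threonine and a tyrosine. In the developing brain the cascade is known for its part in the decision between neuronal and glial fates, and germline changes in its genes cause the RASopathies, a group of developmental syndromes to which BRAF K499E belongs as a change found in cardiofaciocutaneous syndrome. The measurement reported here is of transcripts, and it carries no information on phosphorylation or activity of the proteins.

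The sequences that follow locate the residues through which the cascade acts, as coding strand DNA read from GRCm39 with Gencode vM39 gene models, 5′ to 3′. In *Braf*, at chr6:39617385-39617437 on the minus strand in exon 15 of the canonical transcript, the capitals mark the unmutated lysine codon 536 of that transcript, which is the lysine of K499E in the human numbering. The sequence of the plasmid insert was not used here. The chromosomal stretch is shown because it holds the codon that the label K499E names:
Braf: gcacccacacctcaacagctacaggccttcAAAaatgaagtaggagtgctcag
The next lines show the activation segments of both MEK genes and of *Mapk3*, at chr9:64100999-64101043 on the minus strand in exon 6 of *Map2k1*, at chr10:80955156-80955200 on the plus strand in exon 6 of *Map2k2* and at chr7:126362612-126362656 on the plus strand in exon 4 of *Mapk3*. The capitals mark the codons from the first to the second serine that RAF phosphorylates, residues 218 to 222 of MEK1 and 222 to 226 of MEK2, and the threonine, glutamate and tyrosine codons 203 to 205 of ERK1, whose threonine and tyrosine MEK phosphorylates:
Map2k1: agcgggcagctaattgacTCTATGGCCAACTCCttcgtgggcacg
Map2k2: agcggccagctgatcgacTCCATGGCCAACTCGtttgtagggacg
Mapk3: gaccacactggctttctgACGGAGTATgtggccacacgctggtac
The MEK stretches differed at 8 of 45 bases. The last lines show where the RAS genes diverge most, the stretch before the stop codon, at chr7:140771264-140771335 on the minus strand in exon 5 of *Hras* and at chr3:102970691-102970762 on the plus strand in exon 5 of *Nras*. The capitals mark the last 4 codons, 186 to 189, which open with the cysteine that receives the lipid anchor:
Hras: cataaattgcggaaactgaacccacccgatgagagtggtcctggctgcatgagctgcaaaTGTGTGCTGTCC
Nras: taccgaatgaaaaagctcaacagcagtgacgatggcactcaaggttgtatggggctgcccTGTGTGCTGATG
These RAS stretches differed at 37 of 72 bases. Across the whole coding sequence, *Map2k1* and *Map2k2* were identical at 75.4% of aligned bases, with 56 bases as the longest run shared exactly. *Nras* and *Hras* were identical at 75.3%, with a longest run of 23 bases, and *Araf* and *Braf* at 62.6%, with a longest run of 17 bases.

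The sequenced depth, estimated from the lowest values of each sample, was between 24500000 reads in KE replicate 2 and 34100000 reads in KE replicate 1. Correlations of log2 values between samples were at least 0.989 within a group and at most 0.95 between groups. As a check of the labelled cell type, 11 of 11 astrocyte markers had a mean of at least 10, and their summed normalized counts were 195734 to 201787 in KE samples and 143563 to 152402 in NT samples. Of these markers 7 rose and 2, *Gja1* and *Fgfr3*, fell. Markers of microglia and macrophages were present as well, and 14 of 14 were lower in KE samples, with sums of 3725 to 5659 in KE samples and 39446 to 47069 in NT samples and no marker at 0 in all samples. Oligodendrocyte lineage markers were lower in 7 of 7 tested genes, with sums of 27105 to 31875 in KE samples and 35920 to 36217 in NT samples. Of the neuronal markers 2 rose and 1 fell of 6 tested, while their sum was lower in KE samples, at 6079 to 6534 against 7664 to 8227 in NT samples. Most of that sum was *Map2*, with 4906, 4851 and 5137 normalized counts in KE samples and 7243, 6653 and 7334 in NT samples. Of the vascular and mesenchymal markers 3 rose and 2 fell of 7 tested, with sums of 2072 to 2239 in KE samples and 1827 to 2044 in NT samples. The interferon response list rose in 10 of 10 genes, with sums of 201251 to 207618 in KE samples and 19561 to 29830 in NT samples. These lists moved together with every difference between the groups given in the following paragraphs, and their part in those differences was not tested. In bulk RNA, fewer cells of a type and less RNA per cell cannot be told apart. The labels do not say whether the replicates were separate cultures, so p-values measure only the spread between these samples, which may be technical.

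Values are normalized counts as the authors deposited them, read here as Salmon gene counts divided by the size factors of DESeq2, the tools that the submitters' processing notes list. The log2 fold change (log2FC) is the KE mean minus the NT mean of log2(normalized count + 1) from limma, with its SE and a Benjamini-Hochberg adjusted p-value over the 15280 genes with a mean of at least 10. All 7 genes passed that filter. At an adjusted p-value under 0.05, 4 of the 7 genes were higher in KE samples, 1 was lower and 2 did not pass. Of all tested genes 51.3% passed, 25.3% higher and 26.0% lower, so passing the test was common in this comparison. The median log2FC of the 7 genes was 0.19, or 0.15 without *Braf*, against 0.00 over all tested genes.

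**Figure D1:**
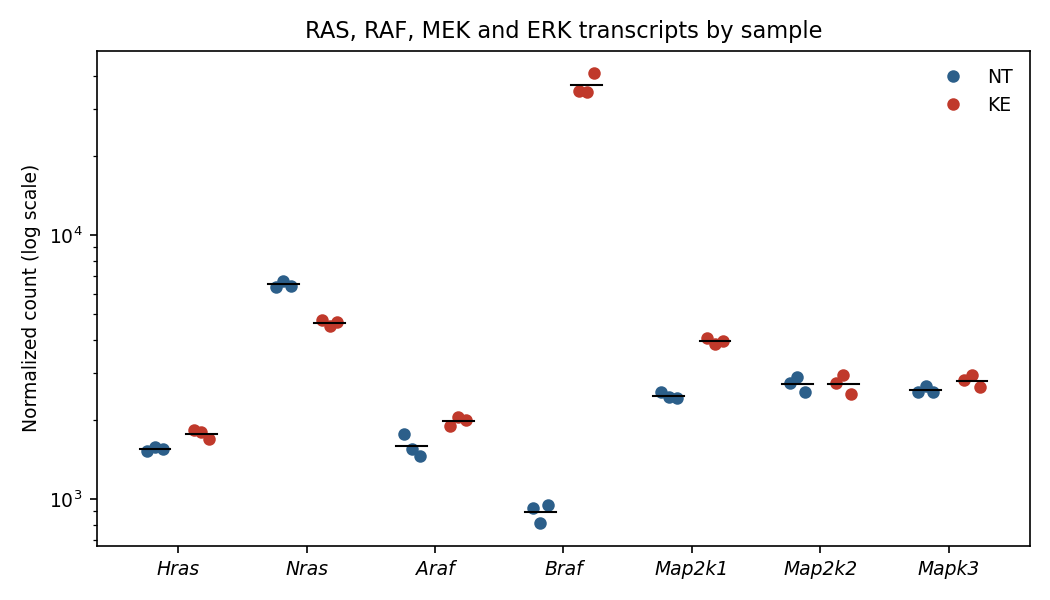
Normalized counts on a log scale (y axis) of the 7 genes (x axis) in the 3 NT samples (blue) and the 3 KE samples (red), with 1 point per sample and a bar at each group's mean. *Braf* shows the widest gap between the groups, *Map2k1* is higher and *Nras* lower in all KE samples, and the points of *Map2k2* and *Mapk3* overlap.

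HRAS and NRAS are membrane-anchored GTPases that carry the signal from receptors to RAF. *Hras* (ENSMUSG00000025499, chromosome 7, 140768592 to 140773962, minus strand) had normalized counts of 1822, 1802 and 1688 in KE replicates 1 to 3 and of 1525, 1575 and 1542 in NT replicates 1 to 3. All KE samples were above all NT samples, although KE replicate 3 stood only slightly above NT replicate 2. The mean was 1770 ± 72.35 (SD, n = 3) in KE samples and 1548 ± 25.26 (SD, n = 3) in NT samples, a log2FC of 0.19 (SE 0.06, limma adjusted p = 0.0206). This call was the least secure of the 5, since it was lost without KE replicate 1 (limma adjusted p = 0.0761), without NT replicate 1 (0.0594) and without NT replicate 3 (0.0556).

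*Nras* (ENSMUSG00000027852, chromosome 3, 102965601 to 102976171, plus strand) went the other way. Its normalized counts were 4754, 4520 and 4680 in KE samples and 6374, 6677 and 6434 in NT samples. The groups were well apart, with the highest KE sample far below the lowest NT sample. The mean of 4652 ± 119.6 (SD, n = 3) in KE samples was 0.716 times the NT mean of 6495 ± 160.5 (SD, n = 3), with a log2FC of -0.48 (95% confidence interval -0.60 to -0.37, limma adjusted p = 2.06e-05). *Nras* was the only 1 of the 7 genes that fell.

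Within each sample the ratio of *Nras* to *Hras* was 2.61, 2.51 and 2.77 in KE samples and 4.18, 4.24 and 4.17 in NT samples. *Nras* counts thus exceeded *Hras* counts in all samples, and the KE ratios lay below all NT ratios. On the log2 scale the ratio differed by -0.67 between the groups (exact permutation test, two-sided, p = 0.1, adjusted p = 0.1 over 3 ratios). With 3 samples against 3, 0.1 is the smallest p-value that the 20 divisions of the samples allow, so none of the 3 ratios could reach 0.05. The opposite changes cannot be read as changes in the active pool of either GTPase, which was not measured. Of the 5411 bases of the canonical *Nras* transcript, 185 lay in runs of at least 50 bases that were identical to some stretch of 192 other genes, whereas the canonical *Hras* transcript had no such run.

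ARAF and BRAF are serine/threonine kinases that bind GTP-loaded RAS and phosphorylate MEK. *Braf* (ENSMUSG00000002413, chromosome 6, 39579870 to 39702629, minus strand), the gene carried by the plasmid, served as the check of the labels. It had normalized counts of 35025, 34933 and 40978 in KE samples and of 925.3, 810.5 and 946.3 in NT samples. No KE sample came near an NT sample, so the values go with the group labels in all 6 samples. The mean of 36979 ± 3464 (SD, n = 3) in KE samples was 41.4 times the mean of 894.1 ± 73.07 (SD, n = 3) in NT samples, with a log2FC of 5.37 (SE 0.08, limma adjusted p = 2.11e-11). Its absolute log2FC was larger than that of 99.9% of the tested genes. The table gives 1 value per sample for *Braf*, with no separate value for the plasmid. The species and length of the insert are not given in the sources used here, so it is unknown how fully its RNA was counted as mouse *Braf*, and a change of the cells' own *Braf* was not measurable.

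In its canonical transcript, *Araf* (ENSMUSG00000001127, chromosome X, 20664012 to 20726772, plus strand) shared no identical run of at least 50 bases with *Braf* or any other gene. It had normalized counts of 1895, 2044 and 2001 in KE samples and of 1760, 1549 and 1455 in NT samples. All KE samples were above all NT samples, with NT replicate 1 nearest to the KE group. The mean was 1980 ± 76.45 (SD, n = 3) in KE samples and 1588 ± 156.2 (SD, n = 3) in NT samples, a 1.25-fold difference (log2FC 0.32, 95% confidence interval 0.15 to 0.49, limma adjusted p = 0.00484). Exons of *Syn1*, a synaptic vesicle gene on the opposite strand, covered 23 bases of its exons, and *Syn1* itself was higher in KE samples (log2FC 0.52, limma adjusted p = 0.00181).

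*Araf* stood at 1.90, 1.91 and 1.54 times *Braf* in NT samples, and at 0.0541, 0.0585 and 0.0488 times *Braf* in KE samples. The ratio differed by -5.05 on the log2 scale (exact permutation test, two-sided, p = 0.1), since *Braf* rose far more than *Araf*. *Braf* is the gene carried by the plasmid, so this ratio does not measure the balance between the cells' own transcripts.

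**Figure D2:**
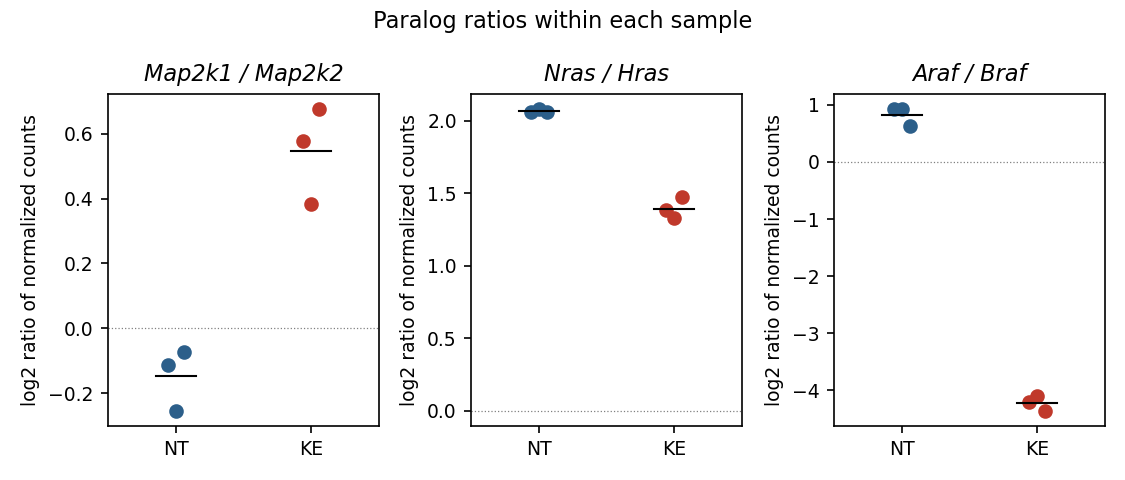
The log2 ratio of the normalized counts of 2 paralogs within each sample (y axis) for NT (blue) and KE (red) samples, with 1 point per sample, a bar at each group's mean and a dotted line at equal counts. *Map2k1* to *Map2k2* lay below 0 in NT and above 0 in KE samples, and *Nras* to *Hras* was lower in KE samples but above 0 in all. *Araf* to *Braf* lay above 0 in NT and below 0 in KE samples. Each difference had p = 0.1 in the exact permutation test. The line of equal counts does not allow for gene length. Per kilobase of all exons *Map2k1* was above *Map2k2* in both groups, but its place in NT samples depends on the length used.

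MAP2K1 (MEK1) and MAP2K2 (MEK2) are the kinases that link RAF to ERK. *Map2k1* (ENSMUSG00000004936, chromosome 9, 64093048 to 64160992, minus strand) had normalized counts of 4086, 3868 and 3983 in KE samples and of 2537, 2425 and 2409 in NT samples. The groups were widely apart and tight within themselves. The mean was 3979 ± 109.2 (SD, n = 3) in KE samples and 2457 ± 69.94 (SD, n = 3) in NT samples, a 1.62-fold difference (log2FC 0.70, SE 0.05, 95% confidence interval 0.57 to 0.82, limma adjusted p = 1.78e-06). After *Braf* it was the change of largest size among the 7 genes, and it was larger in absolute log2FC than 80.2% of the tested genes. On the opposite strand, exons of *Snapc5*, a subunit of the complex that starts small nuclear RNA transcription, covered 1181 of the 3760 exon bases of *Map2k1*. *Snapc5* had 381.6, 414.1 and 362.9 normalized counts in KE samples and 389.4, 391.5 and 385.5 in NT samples, overlapping between the groups (log2FC -0.01, limma adjusted p = 0.924).

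*Map2k2* (ENSMUSG00000035027, chromosome 10, 80941723 to 80969809, plus strand) had normalized counts of 2740, 2963 and 2491 in KE samples and of 2745, 2891 and 2536 in NT samples. The samples of both groups were interleaved. The mean was 2731 ± 236.3 (SD, n = 3) in KE samples and 2724 ± 178 (SD, n = 3) in NT samples, with a log2FC of 0.00 (limma adjusted p = 0.982). The 95% confidence interval of that log2FC ran from -0.16 to 0.17, which spans 0.892-fold to 1.12-fold, so a difference of the size seen for *Map2k1* lay outside it. The sign of this log2FC changed with the scaling of the samples and with the samples left out.

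The ratio of *Map2k1* to *Map2k2* was 1.49, 1.30 and 1.60 in KE samples and 0.924, 0.839 and 0.950 in NT samples. All NT samples were below 1 and all KE samples above it, but these are ratios of counts that do not allow for gene length. Per kilobase of all exons, *Map2k1* was above *Map2k2* in both groups, at 653.5 against 305.9 in NT samples and 1058 against 306.7 in KE samples. The same held with the longest transcript. The canonical transcript of *Map2k1* (2464 bases) is longer than that of *Map2k2* (2163 bases), so by that length *Map2k1* was the lower in NT samples. Whether the crossing of 1 is a change in the order of levels thus depends on the length used. The difference was 0.69 on the log2 scale (exact permutation test, two-sided, p = 0.1). The canonical transcripts of both genes shared 56 identical bases, 2.27% of that of *Map2k1* and 2.59% of that of *Map2k2*, and neither shared a run of at least 50 bases with any other gene.

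MAPK3 (ERK1) is the kinase at the end of the cascade that phosphorylates targets in the cytoplasm and the nucleus. *Mapk3* (ENSMUSG00000063065, chromosome 7, 126358723 to 126364991, plus strand) had normalized counts of 2813, 2955 and 2665 in KE samples and of 2554, 2680 and 2539 in NT samples. KE replicate 3 was below NT replicate 2, so the groups overlapped at that point, and the other KE samples were above all NT samples. The mean was 2811 ± 144.9 (SD, n = 3) in KE samples and 2591 ± 77.64 (SD, n = 3) in NT samples. The difference did not pass the test (log2FC 0.12, 95% confidence interval -0.02 to 0.25, limma adjusted p = 0.128). The interval leaves room for a rise of up to 1.19-fold.

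**Figure D3:**
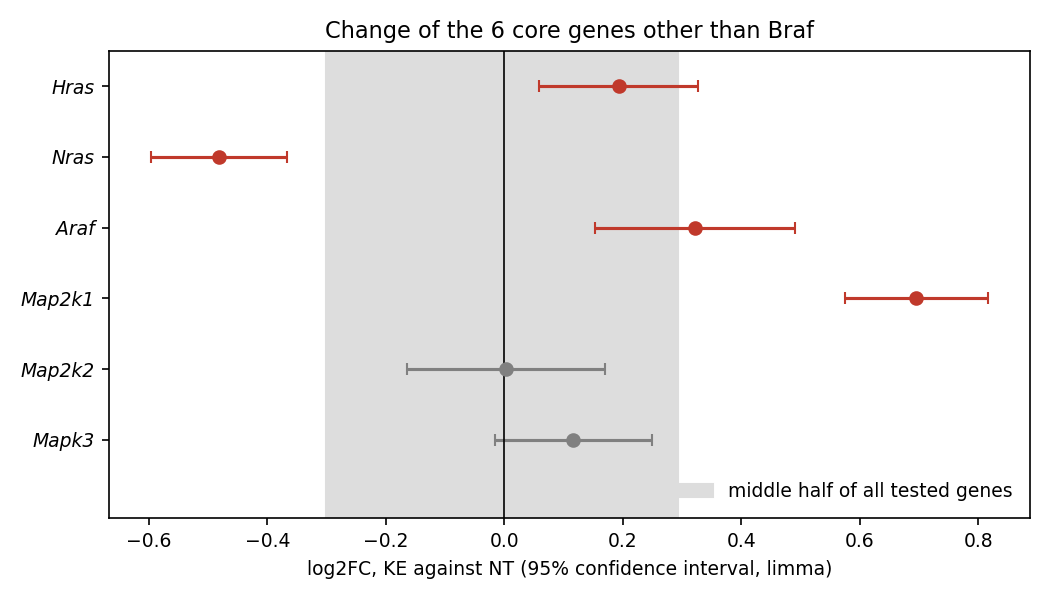
The log2FC of KE against NT samples (x axis) with its 95% confidence interval from limma for the 6 genes other than *Braf* (y axis), red where the adjusted p-value was under 0.05 and grey where it was not. The grey band holds the central 50 percent of all tested genes. The whole intervals of *Map2k1* at 0.70 and *Nras* at -0.48 lie outside the band, and the intervals of *Map2k2* and *Mapk3* include 0.

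In total, 5 of the 7 genes did not overlap between the groups, namely *Braf*, *Map2k1*, *Araf* and *Hras* above and *Nras* below. The groups did not overlap for 59.9% of all tested genes. In absolute log2FC, *Map2k1* and *Nras* were larger than 80.2% and 68.5% of tested genes, *Araf* than 52.8%, *Hras* than 35.2%, *Mapk3* than 22.1% and *Map2k2* than 0.301%.

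To compare levels between the genes, normalized counts were divided by the kilobases of all exons of a gene. In NT samples the order of these levels was *Mapk3* (970.1 per kb), *Nras* (890.6), *Map2k1* (653.5), *Map2k2* (305.9), *Hras* (305.8), *Araf* (168.3) and *Braf* (47.3). The ERK tier was thus at the top and the RAF tier at the bottom. By this length *Map2k2* and *Hras* did not differ beyond their spread. With the longest transcript in place of all exons the order was the same, but *Map2k2* (704.6 per kb) stood above *Hras* (372.1) beyond their spread. *Mapk3* (1199) and *Nras* (1191) then came within their spread of each other, as did *Hras* and *Araf* (370.9). By the canonical transcripts, *Map2k1* was instead below *Map2k2* in NT samples, so the order was not the same under every length. In KE samples *Braf* was the highest at 1956 per kb of exon, followed by *Map2k1* (1058), *Mapk3* (1052) and *Nras* (637.8), of which *Map2k1* and *Mapk3* did not differ beyond their spread. With the longest transcript they did, at 1528 (1485 to 1569) for *Map2k1* and 1301 (1233 to 1367) for *Mapk3*. The length of the plasmid's transcript is unknown, and the KE level of *Braf* per kb depends on the length used and reached 3646 with the longest transcript of the gene.

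**Figure D4:**
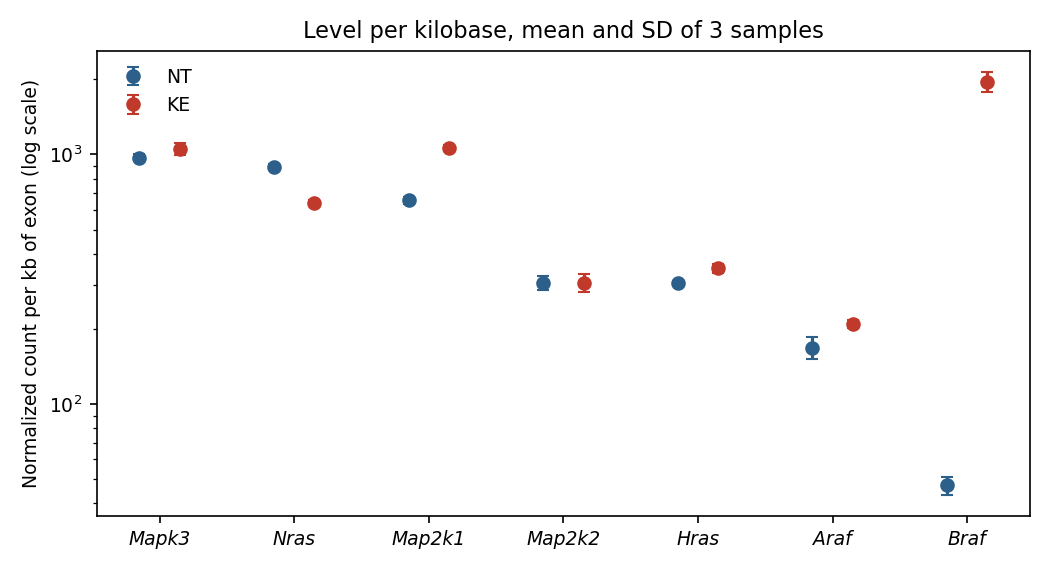
Normalized counts per kilobase of exon on a log scale (y axis) for the 7 genes in the order of their NT levels (x axis), as mean and SD of the 3 NT (blue) and 3 KE (red) samples. *Braf* went from the lowest place in NT samples, 47.3 per kb, to the highest in KE samples, 1956 per kb, while *Map2k1* at 1058 passed *Nras* at 637.8.

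For each member, the genes whose profile over the 6 samples was nearest were found by the root mean square (RMS) difference of log2 values centred on the NT mean, among 12072 genes with a mean of at least 100. *Mapk3* was closest to *Acaa2* (RMS difference 0.01), *Fam104a* (0.02) and *Rnpep* (0.02). *Hras* was closest to *Cox6c* (0.01), *Snhg17* (0.02) and *Dnajc5* (0.02), and *Map2k2* to *Use1* (0.02), *Mrpl43* (0.02) and *Pin4* (0.03). The nearest profiles to *Nras* were those of *Zfp568*, *Tsr1* and *Gtf3c2*, each with an RMS difference of 0.03. *Map2k1* was nearest to *Aldh6a1* (0.03), *Pdrg1* (0.04) and *Blcap* (0.04), and *Araf* to *Cbwd1* (0.04), *Tmem179b* (0.04) and *Vmp1* (0.05). For *Braf* the nearest genes were *Gbp11* (0.38), *Ly6a* (0.39) and *Tgtp1* (0.45), which stood further off than the nearest genes of any other member. None of the 7 genes was among the 3 nearest of another.

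Other genes of the pathway were grouped in 8 lists by role. Of 96 genes listed, 92 were tested, of which 17 rose, 27 fell and 48 did not pass, so that 47.8% passed. This share is near the 51.3% of all tested genes, and the median log2FC of the 92 genes was 0.01.

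Upstream of RAS, the list of activators and adaptors had 13 tested genes, of which 1 rose and 3 fell. *Rasgrp3*, an exchange factor for RAS and RAP, had 22.5, 34.7 and 25.4 normalized counts in KE samples and 273.6, 213.5 and 260.6 in NT samples (log2FC -3.15, limma adjusted p = 3.31e-07). *Cbl*, a ubiquitin ligase of activated receptors, fell with a log2FC of -0.43. The others, *Gab1* (log2FC -0.16) and *Rasgrf2* (log2FC 1.36, with at most 71.3 normalized counts in any sample), are named after their values were seen. The adaptor *Grb2* and the exchange factor *Sos1*, which act directly before RAS, had log2FC values of -0.01 and -0.06 and did not pass.

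Among 9 GTPases related to RAS, 4 rose and 3 fell, with a median log2FC of -0.02. *Rras* (log2FC 0.58) and *Mras* (0.46), the latter part of the phosphatase complex that activates RAF, rose as *Hras* did. *Rap1a* (log2FC -0.31) and *Rap1b* (-0.21), which signal to RAF from other receptors, fell as *Nras* did. Of 8 genes for the lipid modification and transport of RAS, 1 rose and 2 fell. These were *Pde6d* (log2FC 0.22), a carrier of farnesylated proteins, *Lypla1* (-0.22), which removes palmitate, and *Zdhhc9* (-0.22), which adds palmitate to HRAS and NRAS. Of 7 tested GTPase-activating proteins, which switch RAS off, none rose and *Rasal2* fell (log2FC -0.34), whereas *Nf1* had a log2FC of -0.12 and did not pass (limma adjusted p = 0.141).

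At the RAF and MEK tiers, the list of partners had 18 genes, of which 2 rose and 5 fell. *Ywhag*, a 14-3-3 protein that binds phosphorylated RAF, rose (log2FC 0.37), while the other 14-3-3 genes that passed, *Ywhah* (-0.44), *Ywhae* (-0.25) and *Ywhaq* (-0.19), fell. *Pebp1*, the RAF kinase inhibitor protein, rose with a log2FC of 0.26, and the scaffold gene *Cnksr3* fell with one of -0.56. *Ksr1*, a scaffold that holds RAF, MEK and ERK together, did not pass (log2FC 0.19, limma adjusted p = 0.0795).

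Downstream of ERK, 12 substrate kinases and transcription factors held 1 gene that rose and 4 that fell. The ribosomal S6 kinases *Rps6ka6* (log2FC -1.58) and *Rps6ka1* (-1.06) fell. Among the transcription factors *Elk1* rose (log2FC 0.21), and *Elk4* (-0.34) and *Srf* (-0.35) fell. *Rps6ka1* had 1255, 1334 and 1203 normalized counts in KE samples and 2549, 2818 and 2539 in NT samples, with no overlap. Feedback genes of the pathway, whose transcripts are commonly used as a readout of ERK activity, changed in both directions, since of 10 tested 4 rose and 4 fell. *Dusp5* (log2FC 1.02) and *Dusp4* (0.71), nuclear phosphatases that act on ERK, rose, and the inhibitor *Spry1* (-1.13) and the cytoplasmic phosphatase *Dusp7* (-0.43) fell. The other genes of the list that rose were *Spred3* (log2FC 0.56) and *Spred1* (0.23), inhibitors related to the Sprouty proteins. The others that fell were *Dusp6* (log2FC -0.28), another cytoplasmic phosphatase of ERK, and the inhibitor *Spry4* (-0.30).

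In the list of parallel kinases, which holds the JNK, p38 and ERK5 cascades and the atypical kinases *Mapk4* and *Mapk6*, 4 of 15 genes rose and 5 fell. *Mapk13* (p38 delta, log2FC 1.24) and *Mapk10* (JNK3, 0.91) rose, and *Mapk11* (p38 beta, -0.49), *Mapk7* (ERK5, -0.20) and *Mapk6* (ERK3, -0.19) fell. At the kinase tier that corresponds to MEK, *Map2k4* of the JNK cascade rose (log2FC 0.46) and *Map2k6* of the p38 cascade fell (-0.70), while *Map2k7* did not pass (-0.03, limma adjusted p = 0.713).

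**Figure D5:**
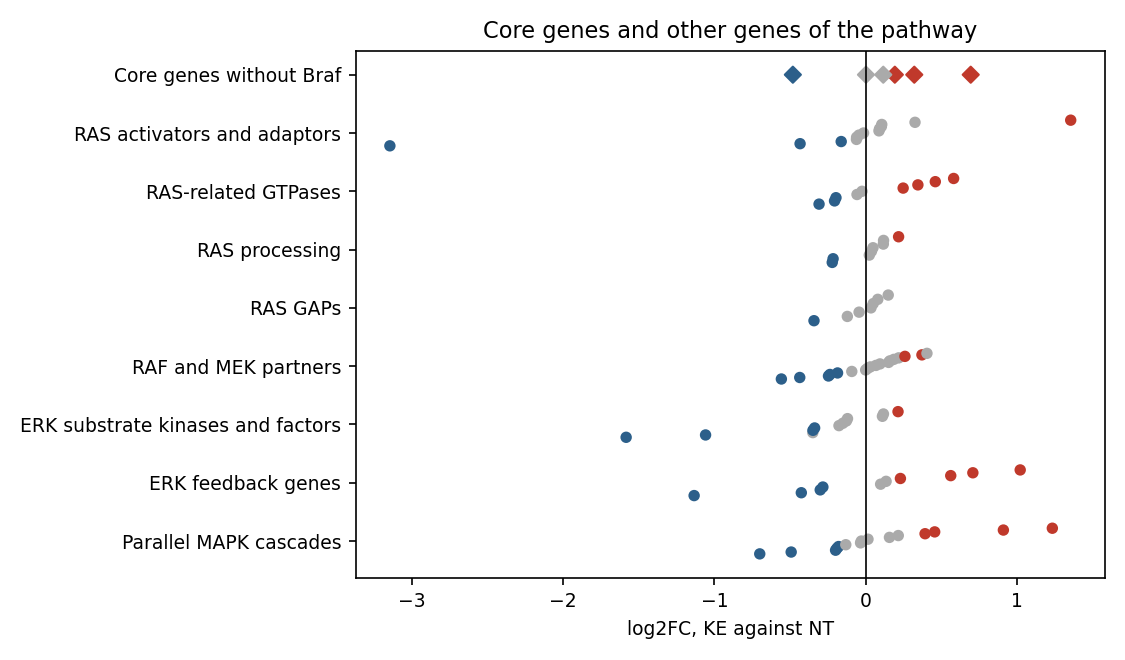
The log2FC of KE against NT samples (x axis) for the core genes without *Braf* (diamonds) and for the tested genes of the 8 pathway lists (circles, 1 row per list on the y axis), red for genes that rose, blue for genes that fell and grey for genes that did not pass. Every list except that of the GTPase-activating proteins held genes that passed in both directions, and the 3 points farthest from 0 are *Rasgrp3* at -3.15, *Rps6ka6* at -1.58 and *Rasgrf2* at 1.36.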

How the data were processed

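mRNA from 3 KE and 3 NT samples was sequenced after preparation with a stranded kit. The authors deposited a normalized signal for each gene, read here as a Salmon count divided by DESeq2's size factor. The submitters' processing notes list Trim Galore, STAR, Salmon, DESeq2 and GRCh38. The methods give GRCm39 with Gencode M28 for mouse, in a paragraph whose listed RNA samples are hippocampus and spheroids. That paragraph names astrocytes only for a fold change cutoff. Whether counting used strand, and which batches were adjusted, is not given in the sources used here. Whole reads could not be recovered (74.6% to 77.5% of low values were multiples of the value of 1 read to within 0.1), so no count test was run. The log2(value + 1) was fitted with limma 3.58.1 (R 4.3.3) with a variance trend and group as the factor, over the 15280 genes whose mean reached 10. Tests were two-sided. On simulated data with 200 of 15273 genes changed, 180 were recovered, with 13 false calls. Coordinates are from Gencode M39, which held 54749 of 55357 identifiers. The members and lists were chosen with earlier results of these data known. Named list genes were the called genes with a mean of at least 100, up to 2 rises and 2 falls per list, and any others are named for context after their values were seen. Alternatives were other pseudocounts, filters and scalings, limma without trend or with robust moderation, a replicate block, other gene lengths and leaving out each sample.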

Additional observations from a re-analysis of the deposited data

How the results depend on the processing

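The calls of *Braf*, *Araf*, *Nras* and *Map2k1*, and the absence of a call for *Mapk3* and *Map2k2*, held under all 16 alternatives. For *Hras*, leaving out 1 sample at a time gave log2FC values of 0.17 to 0.23, and its adjusted p-value from limma was between 0.0173 and 0.0761 over all alternatives. The log2FC of *Map2k2* turned to -0.0218 with quantile normalization and to -0.0061 with scaling to totals, and ranged from -0.0583 to 0.0669 when 1 sample was left out. The cause was not tested. Samples with the same replicate number deviated together only weakly (correlations of 0.059, 0.066 and 0.065), though each correlated best with its own number, so the numbers were not taken as pairs. In the fit with a replicate block, 3967 genes were higher and 4079 lower, against 3870 and 3974 without it, and no member's call changed. Levels per kb moved with the gene length used, for example from 305.9 with all exons to 704.6 with the longest transcript for *Map2k2* in NT samples. Without counts, the counting error of low genes is unknown, and KE replicate 2 was the least deeply sequenced.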
